A study of Mus musculus with 13 samples.

Results

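The fatty acid desaturases and a subset of the elongases were examined in whole parametrial white adipose tissue (pmWAT) of female mice, as 10 of the 33618 genes in the deposited counts: *Scd1*, *Scd2*, *Scd3*, *Fads1*, *Fads2*, *Fads3*, *Elovl1*, *Elovl4*, *Elovl5* and *Elovl7*. They were found by symbol, through their Ensembl identifiers. The 6 *Lmna* iADKO mice carried *Lmna* fl/fl and Adipoq-CreERT2+/-, a tamoxifen-inducible Cre driven from the adiponectin promoter in adipocytes, and the 7 controls were *Lmna* fl/fl mice without Cre. Both genotypes carried the floxed allele and received tamoxifen at 50 mg/kg on 5 consecutive days at 12 to 14 weeks of age, and tissue was taken 2 weeks posttamoxifen. No group carried Cre without the floxed allele, so effects of Cre and of the deletion cannot be told apart here. Each library came from the whole tissue of a different mouse.

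Fatty acids are made as saturated chains in the cytosol and are then modified at the endoplasmic reticulum. Stearoyl-CoA desaturases (*Scd* genes) introduce a first unsaturation into saturated chains and yield the monounsaturated fatty acids that white adipose tissue stores in triglyceride. Fads1 and Fads2 desaturate dietary polyunsaturated precursors, Elovl enzymes catalyze the condensation step that lengthens a chain, and cytochrome b5 with its reductases carries electrons to the desaturases.

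The libraries held 18854223 to 19776491 counted reads per mouse. Levels are given as CPM, counts scaled to library size with edgeR's TMM factors, and for 16753 genes the genotypes were compared by edgeR's quasi-likelihood test at a Benjamini-Hochberg adjusted p threshold of 0.05. *Lmna* itself was not lower in iADKO in counts over the whole gene, with 84.7 ± 7.51 CPM in the 7 fl/fl mice (SD), 96.7 ± 11.5 CPM in the 6 iADKO mice (SD) and a log2 fold change of 0.19 (edgeR adjusted p = 0.0785). According to the paper, the loxP sites flank only some exons of *Lmna* and the deletion is specific to adipocytes. Counts over the whole gene in whole tissue therefore do not check the genotype labels, which are used as given. All 7 adipocyte markers were detected in every group and all 7 were lower in iADKO, with summed levels of 10789 to 20093 CPM in fl/fl and 7173 to 12017 CPM in iADKO. Of the 9 macrophage markers, 6 were higher in iADKO, with sums of 2140 to 5601 CPM in fl/fl and 3312 to 5733 CPM in iADKO. Among all genes tested, 16.3% were lower and 14.1% were higher. In whole tissue, fewer cells of a type and less RNA per cell cannot be told apart.

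A mouse of each genotype stood apart from the others. In fl/fl replicate 5 the 10 most abundant genes held 9.54% of counts, against 12.7% to 14.3% in the other fl/fl mice, with the lowest fl/fl adipocyte marker sum (10789 CPM) and the highest macrophage marker sum (5601 CPM). In iADKO replicate 6 they held 9.12%, against 6.51% to 7.21%, with the highest iADKO adipocyte marker sum (12017 CPM) and the lowest macrophage marker sum (3312 CPM). Epithelial markers summed to 171.5 CPM in that mouse, against 21.3 to 56.9 CPM in the remaining iADKO mice. In fl/fl they summed to 11.1 to 38.6 CPM. Fold changes of the desaturases and elongases tested are also given without these 2 mice, an alternative chosen after seeing the data. In these measures other than the epithelial sum, and in *Scd1*, each lay toward the other genotype. Leaving these mice out thus tends to widen such differences by construction. Without these 2 mice 7192 genes passed the threshold, against 5104 with all mice. Without them *Lmna* was higher in iADKO (0.19, edgeR adjusted p = 0.0344).

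The *Scd* and *Fads* genes lie in clusters on chromosome 19, and not every gene of a cluster passed the test. Members with opposite or different responses could be set side by side by promoter in the RefSeq table (GRCm38.p6, 250 bases before to 50 after the start), which held 7 of the 10 genes. *Fads2* and *Fads3* are shown because they are neighbors of which only *Fads3* passed the test, and *Elovl1* and *Elovl5* because they moved in opposite directions. *Elovl1* has 2 starts in the table. Capitals mark CCAAT (or ATTGG, its reverse complement) and the E-box CACGTG.
Fads2, chr19:10101454-10101753, minus strand: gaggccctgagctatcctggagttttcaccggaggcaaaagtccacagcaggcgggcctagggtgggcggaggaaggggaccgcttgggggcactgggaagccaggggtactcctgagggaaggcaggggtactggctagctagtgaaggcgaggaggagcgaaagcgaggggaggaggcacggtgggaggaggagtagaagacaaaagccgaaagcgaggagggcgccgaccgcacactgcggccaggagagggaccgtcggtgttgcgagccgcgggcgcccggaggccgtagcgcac
Fads3, chr19:10041298-10041597, plus strand: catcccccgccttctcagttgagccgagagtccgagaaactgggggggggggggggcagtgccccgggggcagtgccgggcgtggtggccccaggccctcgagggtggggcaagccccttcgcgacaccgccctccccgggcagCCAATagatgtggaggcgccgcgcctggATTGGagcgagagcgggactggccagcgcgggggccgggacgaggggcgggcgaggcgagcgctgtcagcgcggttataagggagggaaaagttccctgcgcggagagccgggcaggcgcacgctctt
Elovl5, chr9:77917115-77917414, plus strand: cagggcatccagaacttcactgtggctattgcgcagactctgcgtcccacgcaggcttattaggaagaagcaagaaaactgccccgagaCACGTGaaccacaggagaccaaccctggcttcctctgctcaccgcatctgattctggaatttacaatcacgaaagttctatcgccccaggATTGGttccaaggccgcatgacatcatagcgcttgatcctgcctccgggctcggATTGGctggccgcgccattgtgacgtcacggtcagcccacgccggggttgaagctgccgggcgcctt
Elovl1, chr4:118427843-118428142, plus strand: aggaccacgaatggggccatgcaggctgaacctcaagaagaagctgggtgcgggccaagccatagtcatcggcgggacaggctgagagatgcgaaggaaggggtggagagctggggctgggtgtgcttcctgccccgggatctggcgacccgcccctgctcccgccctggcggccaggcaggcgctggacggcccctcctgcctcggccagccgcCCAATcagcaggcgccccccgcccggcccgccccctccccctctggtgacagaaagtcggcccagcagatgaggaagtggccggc
Elovl1, chr4:118429451-118429750, plus strand: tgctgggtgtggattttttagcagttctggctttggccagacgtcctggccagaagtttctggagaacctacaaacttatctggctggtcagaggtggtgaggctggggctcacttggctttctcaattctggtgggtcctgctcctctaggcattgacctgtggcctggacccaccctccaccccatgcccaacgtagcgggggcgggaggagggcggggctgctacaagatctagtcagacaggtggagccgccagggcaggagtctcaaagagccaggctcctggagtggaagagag

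On both strands, CCAAT was found in 37.4% of all 32851 promoters of this length, the E-box in 7.15%, the GC box GGGCGG in 35.7% and TATAAA in 13.6%. The *Fads3* window held 2 CCAAT boxes, beginning 106 and 78 bases before the start, and 2 GC boxes. The *Fads2* window held no CCAAT box and 1 GC box. The *Elovl5* window held 2 CCAAT boxes, 71 and 17 bases before the start, and an E-box 161 bases before it. The upstream *Elovl1* start had 1 CCAAT box and 5 GC boxes, and its downstream start had 2 GC boxes. TATAAA was in none of the windows of these 7 genes, which do not include *Scd1*, *Scd2* or *Fads1*. These matches describe letters in a window and were not tested against expression.

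Desaturases and elongases differed widely in level, from the most abundant transcript to a few reads (plot of levels per length). On the scale of CPM per kb of exon, *Scd1* was at 6010 in fl/fl and 1221 in iADKO and stood above all the others in both genotypes without overlap. *Fads3* followed at 108.7 in fl/fl and 61.6 in iADKO, and its range overlapped that of *Scd2*, at 72.9 and 39.8. *Elovl5*, at 30.9 in fl/fl, and *Fads1*, at 26.7, overlapped each other. *Elovl1* (10.2) and *Fads2* (8.64) overlapped in fl/fl but not in iADKO, where they were at 13.1 and 8.71. *Elovl7* (0.325), *Scd3* (0.271) and *Elovl4* (0.159) overlapped in fl/fl and lay below the rest. With the longest transcript as the length, *Fads2* (11.2) stood just above *Elovl1* in fl/fl, with overlapping ranges, and the order of the other genes by mean was unchanged in fl/fl.

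**Figure D1:**
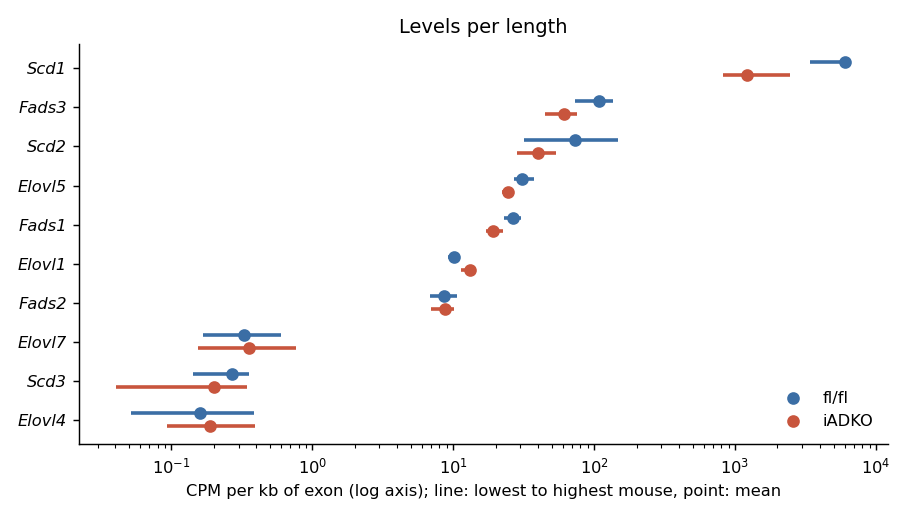
Level per length of each gene in fl/fl (blue) and iADKO (red) mice, in CPM per kb of exon on a log axis, with points for means and lines from the lowest to the highest mouse. *Scd1* lies alone at the top (means 6010 and 1221), and *Elovl7*, *Scd3* and *Elovl4* lie below 1.

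Of the 10 genes, 9 passed the filter on low counts, 5 were lower in iADKO and 1 was higher. Among all genes tested, 30.5% passed the threshold, 16.3% lower and 14.1% higher. The median log2 fold change of the 9 was -0.42, against 0.033 over all genes. Genotypes did not overlap in 3 that were lower (*Scd1*, *Fads1* and *Elovl5*) and in 1 that was higher (*Elovl1*), and over all genes tested 6.64% were so separated, 3.93% lower and 2.71% higher. The split over all genes depended on scaling, with 2367 higher and 2737 lower after TMM, but 7397 higher (44.2%) and 1276 lower (7.62%) with total counts, which moved the median to 0.24. With total counts 3 of the 9 were lower (*Scd1*, *Fads1* and *Fads3*) and *Elovl1* was higher.

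**Figure D2:**
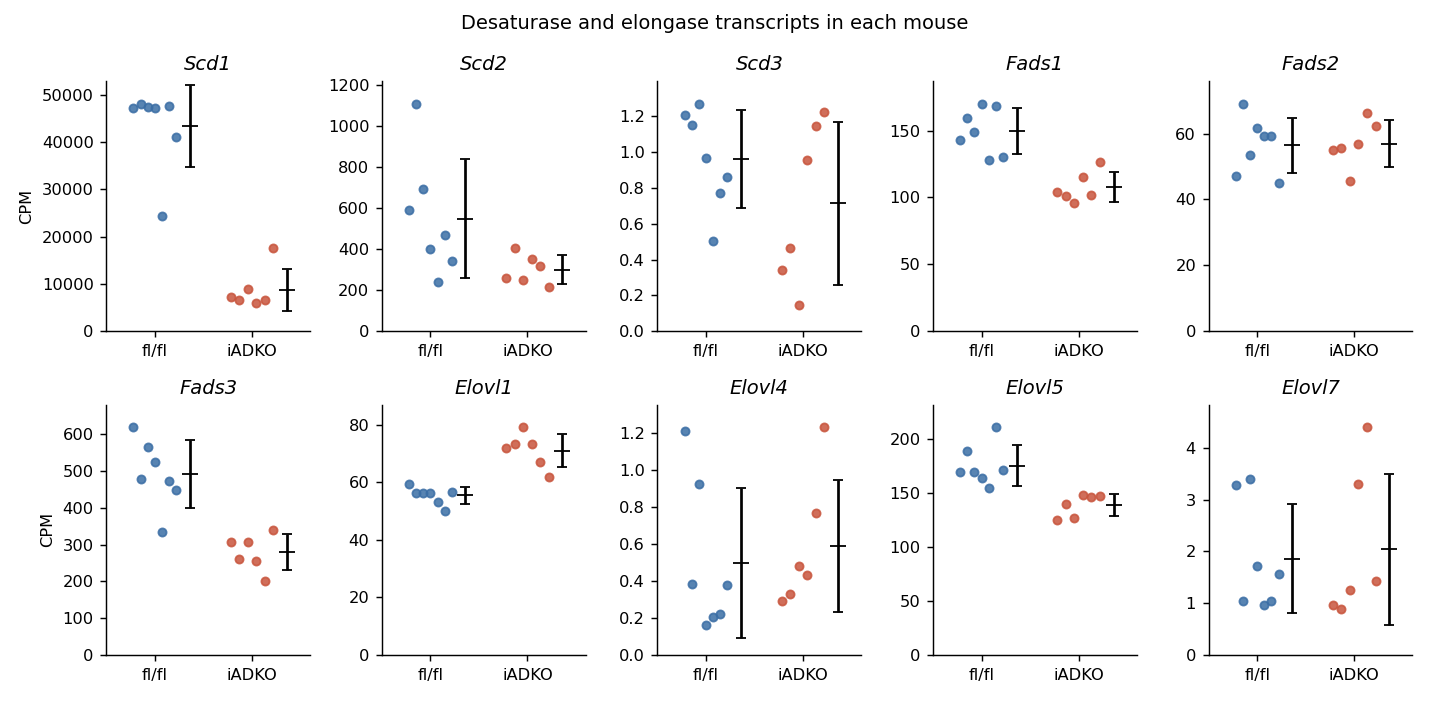
CPM of each gene in each mouse, on linear axes from 0, with fl/fl mice in blue (n = 7), iADKO mice in red (n = 6) and bars for mean ± SD. *Scd1*, *Fads1* and *Elovl5* were lower in every iADKO mouse than in any fl/fl mouse, *Elovl1* was higher, and *Fads2* ranged from 44.9 to 69.0 CPM in fl/fl and 45.5 to 66.3 CPM in iADKO.

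*Scd1* (ENSMUSG00000037071, GRCm39 chr19:44382894-44399154, minus strand) encodes the main stearoyl-CoA desaturase of adipose tissue and was the desaturase with the largest change. Its levels in fl/fl mice had a lowest value of 24443, a median of 47276 and a highest value of 48087 CPM. Those in iADKO mice were 5908, 6889 and 17639 CPM. The genotypes did not overlap, and 5 of the fl/fl mice lay within 47207 to 48087 CPM, so that the fl/fl spread came mainly from replicate 5 at 24443 CPM and replicate 7 at 41124 CPM. The fl/fl mean of 43304 ± 8656 CPM (SD, n = 7) was 4.92-fold that of iADKO, at 8795 ± 4448 CPM (SD, n = 6). The log2 fold change was -2.30 (standard error 0.28, edgeR adjusted p = 2.44e-04), the 17th lowest of 16753. Without fl/fl replicate 5 and iADKO replicate 6 it was -2.75 (standard error 0.13, edgeR adjusted p = 3.34e-08). *Scd1* alone held 4.03% ± 0.715 of all counts in fl/fl (SD, n = 7) and 0.941% ± 0.452 in iADKO (SD, n = 6).

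The difference was also present within groups of mice with neighboring animal numbers in their library names, the meaning of which is not given. In the series with 2 mice of each genotype, which holds both mice that stood apart, *Scd1* differed by -1.74 in mean log2 CPM. Where the series held 3 fl/fl mice and 2 iADKO mice, it differed by -2.79. The adipocyte markers moved in the same direction as *Scd1*, with a median log2 fold change of -1.04. When counts were rescaled so that the mean of these 7 markers was level between mice, a scaling chosen after seeing the data, *Scd1* was still lower in iADKO, by a log2 fold change of -1.41 (edgeR adjusted p = 2.18e-05). On that scale the median of all genes moved to 0.96, 90.2% of genes were higher and 65 genes (0.388%) were lower.

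*Scd2*, a stearoyl-CoA desaturase that is prominent in brain and in early life, was at a lowest, median and highest level of 238.6, 470.1 and 1109 CPM in fl/fl. In iADKO the levels were 213.5, 288.6 and 404.3 CPM, and 5 of the 6 iADKO mice lay within the fl/fl range. The log2 fold change was -0.87 (standard error 0.31, edgeR adjusted p = 0.0462), and the call was lost when 9 of the 13 mice were left out in turn (adjusted p up to 0.0893) and under 5 other settings. Without the 2 mice that stood apart it was -0.95 (edgeR adjusted p = 0.0257), and within the animal-number series *Scd2* differed by -0.17 and -1.25 in mean log2 CPM. In iADKO replicate 6, the highest iADKO mouse for *Scd1*, *Scd2* was at its lowest. *Scd3*, a member of the *Scd* family known from skin, had 3 to 25 reads per mouse and a log2 fold change of -0.42 (95% interval -1.27 to 0.42, edgeR adjusted p = 0.417), or -0.78 without the 2 mice that stood apart (edgeR adjusted p = 0.119).

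Reads of the *Scd* paralogues may be split between genes, since the counting tool and its handling of reads with several matches are not given in the sources used here. Of 7640 windows of 100 bases in *Scd1* transcripts, 48 were found unchanged in *Scd2* transcripts and 86 in those of *Scd3*, which has 3449 windows. No window of 100 bases was shared between members of the *Fads* genes or between the 4 elongases. With *Scd1* so much more abundant, the counts of *Scd2* and *Scd3* are uncertain by an unknown share.

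The balance of the *Scd* genes was compared within each mouse, as a log2 ratio of CPM, with an exact permutation test (two-sided, 1716 splits of the mice, smallest p 0.000583). In all, 12 pairs of paralogues were compared and their p-values adjusted over the 12, after which 5 passed the threshold of 0.05, here and without the 2 mice that stood apart. *Scd1* exceeded *Scd2* by 6.43 ± 0.526 log2 units in fl/fl (SD, n = 7) and 4.80 ± 0.882 in iADKO (SD, n = 6), a difference of -1.63 (exact permutation p = 0.00408, adjusted p = 0.00979), or -1.90 without the 2 mice that stood apart. The ratio thus fell 3.10-fold, although ranges overlapped, because iADKO replicate 6 (6.37) lay among the fl/fl mice (5.44 to 6.90). Per length, *Scd1* made up 98.8% ± 0.487 of *Scd1* to *Scd4* in fl/fl (SD, n = 7) and 96.2% ± 1.72 in iADKO (SD, n = 6), and *Scd2* went from 1.17% to 3.74%. The ratio of *Scd1* to *Scd3* differed by -1.81 (exact permutation p = 0.00117, adjusted p = 0.00466) and that of *Scd2* to *Scd3* by -0.17 (exact permutation p = 0.683, adjusted p = 0.745). Both rest on few *Scd3* reads, and the ratio of *Scd1* to *Scd3* mostly restates the lower *Scd1* itself.

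Among the *Fads* genes, *Fads3* and *Fads1* fell and *Fads2* did not pass the test. *Fads3* (ENSMUSG00000024664, GRCm39 chr19:10018253-10037928, plus strand), whose product acts on trans-vaccenate and on sphingoid bases, was the most abundant *Fads* transcript. Its lowest, median and highest levels were 333.6, 478.7 and 619.0 CPM in fl/fl, and 202.4, 283.6 and 341.2 CPM in iADKO. Of the iADKO mice, 5 of 6 lay below every fl/fl mouse, and the overlap came from the 2 mice that stood apart. The log2 fold change was -0.82 (standard error 0.14, edgeR adjusted p = 0.00116), and -0.98 without these 2 mice. Within the animal-number series *Fads3* differed by -0.50 and -0.96 in mean log2 CPM. With adipocyte markers held level it was 0.12 (edgeR adjusted p = 0.281), where the median of all genes is 0.96.

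*Fads1* (ENSMUSG00000010663, GRCm39 chr19:10160167-10174241, plus strand), the delta-5 desaturase that forms arachidonate and eicosapentaenoate, was at 128.1, 148.9 and 170.0 CPM in fl/fl as lowest, median and highest level. In iADKO it was at 96.1, 103.3 and 126.6 CPM, so that the genotypes were separated by a narrow gap between fl/fl replicate 5 and iADKO replicate 6. Its log2 fold change was -0.48 (standard error 0.084, edgeR adjusted p = 0.00133), and -0.59 without these 2 mice, but 0.45 with adipocyte markers held level (edgeR adjusted p = 0.00789). In the animal-number series *Fads1* differed by -0.29 and -0.55 in mean log2 CPM. *Fads2* (ENSMUSG00000024665, GRCm39 chr19:10038130-10079203, minus strand), the delta-6 desaturase at the start of this pathway, had a lowest, median and highest level of 44.9, 59.2 and 69.0 CPM in fl/fl. Its iADKO levels were 45.5, 56.1 and 66.3 CPM, within the fl/fl range. Its log2 fold change was 0.013 (95% interval -0.22 to 0.24, edgeR adjusted p = 0.936). It was -0.026 without the 2 mice that stood apart, 0.21 with total counts (edgeR adjusted p = 0.122) and 0.93 with adipocyte markers held level (edgeR adjusted p = 2.67e-04), where the median of all genes is 0.96.

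Of the 3 ratios between *Fads* genes, 2 passed the threshold. *Fads1* exceeded *Fads2* by 1.41 ± 0.181 log2 units in fl/fl (SD, n = 7) and by 0.92 ± 0.165 in iADKO (SD, n = 6), without overlap (difference -0.49, exact permutation p = 0.00117, adjusted p = 0.00466). *Fads2* gained on *Fads3* by 0.83 log2 units (exact permutation p = 0.00233, adjusted p = 0.00699), with overlapping ranges of -3.71 to -2.49 in fl/fl and -2.75 to -1.61 in iADKO. Its share of *Fads* transcripts per length was 6.14% ± 1.45 in fl/fl (SD, n = 7) and 9.91% ± 2.17 in iADKO (SD, n = 6). *Fads1* against *Fads3* differed by 0.34 (exact permutation p = 0.0379, adjusted p = 0.0758) and did not pass. Without the 2 mice that stood apart the differences were -0.56 for *Fads1* to *Fads2*, 0.97 for *Fads2* to *Fads3* and 0.41 for *Fads1* to *Fads3*. Within both animal-number series the ratio of *Fads1* to *Fads2* was lower in iADKO, by 0.27 and 0.53 log2 units, and that of *Fads2* to *Fads3* was higher, by 0.48 and 0.94.

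**Figure D3:**
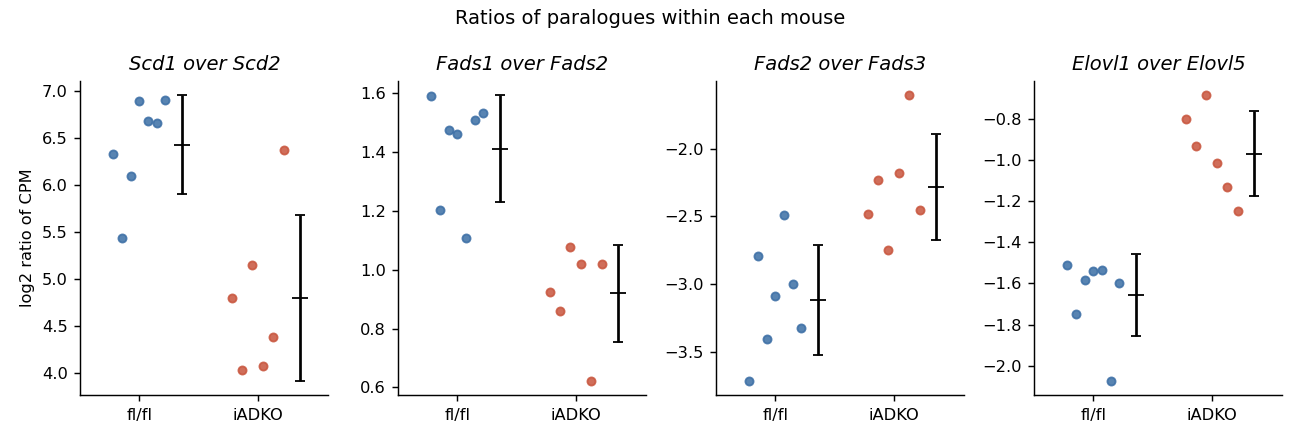
Log2 ratio of CPM between paralogues in each mouse, for *Scd1* over *Scd2*, *Fads1* over *Fads2*, *Fads2* over *Fads3* and *Elovl1* over *Elovl5*, with fl/fl in blue, iADKO in red, bars for mean ± SD and axes that do not start at 0. The genotypes did not overlap for *Fads1* over *Fads2* (1.11 to 1.59 against 0.62 to 1.08) or for *Elovl1* over *Elovl5* (-2.07 to -1.51 against -1.25 to -0.69).

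The elongases split in direction. *Elovl1* (ENSMUSG00000006390, GRCm39 chr4:118284346-118290150, plus strand), which lengthens saturated and monounsaturated very-long chains for sphingolipids, was at 50.1, 56.4 and 59.4 CPM in fl/fl as lowest, median and highest level. In iADKO it was at 62.0, 72.5 and 79.1 CPM, and every iADKO mouse lay above every fl/fl mouse. The log2 fold change was 0.36 (standard error 0.057, edgeR adjusted p = 7.86e-04), a 1.28-fold higher mean, and its fl/fl mice differed little, with a coefficient of variation of 5.32%. It was 0.36 without the 2 mice that stood apart, and 0.30 and 0.34 in mean log2 CPM within the animal-number series. With adipocyte markers held level it was 1.29, where the median of all genes is 0.96. *Elovl5* (ENSMUSG00000032349, GRCm39 chr9:77818113-77891802, plus strand), which lengthens polyunsaturated chains between the Fads2 and Fads1 steps, was at 154.6, 169.6 and 211.1 CPM in fl/fl. Its levels in iADKO were 125.4, 143.3 and 148.2 CPM, below all fl/fl mice. The log2 fold change was -0.34 (standard error 0.073, edgeR adjusted p = 0.00433), but with total counts it was -0.13 (edgeR adjusted p = 0.132) with the animal-number series as a block -0.27 (edgeR adjusted p = 0.0712) and with adipocyte markers held level 0.60 (edgeR adjusted p = 0.00174). Without the 2 mice that stood apart it was -0.40 (edgeR adjusted p = 7.19e-04), and within the animal-number series it was -0.11 and -0.41 in mean log2 CPM.

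The ratio of *Elovl1* to *Elovl5* is nearly free of scaling between libraries and was higher in every iADKO mouse than in any fl/fl mouse. It was -1.66 ± 0.20 log2 units in fl/fl (SD, n = 7) and -0.97 ± 0.207 in iADKO (SD, n = 6), a difference of 0.68 (exact permutation p = 0.000583, the smallest these splits allow, adjusted p = 0.00466). That separation and its smallest p follow from *Elovl1* being higher and *Elovl5* lower in every iADKO mouse than in any fl/fl mouse. The difference was 0.76 without the 2 mice that stood apart and 0.40 and 0.75 within the animal-number series. Per length, *Elovl1* rose from 24.7% ± 2.36 (SD, n = 7) to 34.3% ± 3.39 (SD, n = 6) of the 4 elongases and *Elovl5* went from 74.2% to 64.2%. *Elovl7*, which lengthens saturated and polyunsaturated long chains, was at 0.962 to 3.41 CPM in fl/fl and 0.886 to 4.40 CPM in iADKO, with high values in fl/fl replicates 1 and 3 and iADKO replicates 4 and 5, and its log2 fold change was 0.14 (95% interval -0.84 to 1.12, edgeR adjusted p = 0.831), or 0.09 without the 2 mice that stood apart. *Elovl4*, the elongase of ultra-long chains in retina and skin, had 3 to 25 reads per mouse, did not pass the filter and differed by 0.32 in log2 CPM (exact permutation p = 0.482).

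The enzymes that work beside these genes were taken from lists of known pathway members. The share over all genes tested, to set beside the counts, was 16.3% lower and 14.1% higher. Of 6 tested elongation cycle enzymes other than elongases, 3 were lower and none was higher, with a list median of -0.34. They were *Tecr*, the final reductase (log2 fold change -0.99, edgeR adjusted p = 4.26e-04), *Hacd2*, a dehydratase (-0.82, adjusted p = 0.00212), and *Hsd17b12*, the ketoacyl reductase (-0.63, adjusted p = 0.00374). The highest of the list was *Hacd4*, at 0.33 (adjusted p = 0.141). Of 5 tested electron donors, 3 were lower and 1 was higher, from *Cyb5b*, the mitochondrial outer membrane cytochrome b5 (-0.81, adjusted p = 0.00446), to *Cyb5r4* (0.21, adjusted p = 0.0153). The other lower donors changed less, *Cyb5a* by -0.47 (adjusted p = 0.0222) and *Cyb5r3* by -0.29 (adjusted p = 0.0141).

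Of the remaining elongases, *Elovl6*, which extends palmitate to stearate and so feeds *Scd1*, went from 571.7 ± 224.0 CPM (SD over 7 fl/fl mice) to 94.5 ± 42.5 CPM (SD over 6 iADKO mice), with a log2 fold change of -2.60 (edgeR adjusted p = 5.73e-04), and of -1.63 with adipocyte markers held level (edgeR adjusted p = 5.75e-05). *Elovl3*, an elongase induced in brown fat, was at -1.29 (edgeR adjusted p = 0.0786). None of the 5 remaining membrane desaturases passed the edgeR test, from *Scd4* at -0.23 (adjusted p = 0.626) to *Degs2*, a sphingolipid desaturase and hydroxylase, at 0.95 (adjusted p = 0.0534). Of 10 regulators of desaturase genes, 6 were lower and 1 was higher, beside 16.3% lower and 14.1% higher over all genes tested. The larger changes were in *Insig1*, a sterol-sensing retention protein (-1.45, adjusted p = 6.43e-04), *Thrsp*, a lipogenic cofactor (-1.40, adjusted p = 7.04e-04), *Mlxipl*, which encodes ChREBP (-0.98, adjusted p = 2.73e-04), and *Srebf1*, which encodes SREBP-1 (-0.86, adjusted p = 3.79e-04). *Srebf2*, the cholesterol-pathway SREBP, was at 0.18 (adjusted p = 0.0279).

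With adipocyte markers held level, edgeR gave *Tecr* at -0.041 (adjusted p = 0.744), *Hacd2* at 0.12 (adjusted p = 0.395), *Cyb5b* at 0.17 (adjusted p = 0.208), *Mlxipl* at -0.030 (adjusted p = 0.860) and *Srebf1* at 0.087 (adjusted p = 0.597). *Hsd17b12* was then at 0.33 (edgeR adjusted p = 0.0268), below the median of all genes on that scale (0.96). *Insig1* remained lower, at -0.48 (edgeR adjusted p = 0.0133), and *Thrsp* was at -0.41 (edgeR adjusted p = 0.0583). Without the 2 mice that stood apart, the partners named as lower with an absolute log2 fold change of at least 0.5 stayed lower. *Hacd4* was then higher (0.53, edgeR adjusted p = 8.35e-04), *Elovl3* was lower (-1.54, adjusted p = 0.0363) and *Srebf2* did not pass (0.14, adjusted p = 0.0964).

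**Figure D4:**
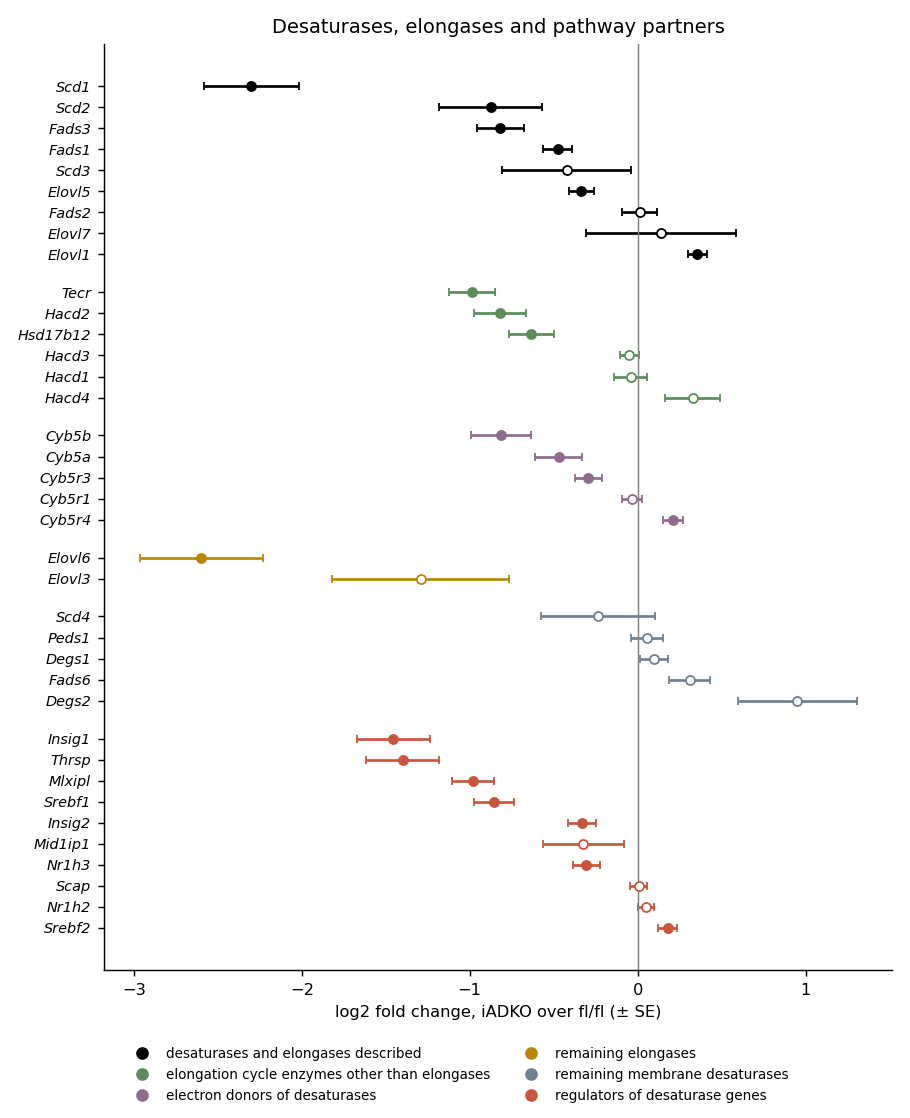
Log2 fold change of iADKO over fl/fl with its standard error from edgeR for the 9 desaturases and elongases tested and for the listed partner genes, colored by list, with filled points past the adjusted p threshold of 0.05. *Scd1* (-2.30) and *Elovl6* (-2.60) lie farthest to the left, and the filled points to the right of 0 are *Elovl1* (0.36), *Cyb5r4* (0.21) and *Srebf2* (0.18).

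Neighboring genes on chromosome 19 showed no common direction. Within 100 kb of the *Scd* cluster, which spans 207.5 kb from *Scd3* to *Scd1* on GRCm39, *Chuk* (-0.037, edgeR adjusted p = 0.599) and *Cwf19l1* (-0.0038, adjusted p = 0.966) did not pass the test and *Bloc1s2* was higher (0.34, adjusted p = 0.0170). *Scd4*, inside the cluster, is described above. *Fads3* and *Fads2* are transcribed toward each other and their ends lie 201 bases apart, yet their changes differed. Around the *Fads* cluster, *Rab3il1* (0.41, edgeR adjusted p = 0.0143) and *Fen1* (0.53, adjusted p = 0.00133) were higher and the lncRNA *Gm50340* was lower (-0.54, adjusted p = 0.0354). *Fth1*, *Best1*, *Tmem258*, *Myrf* and *Dagla* did not pass the test, with log2 fold changes between -0.27 and 0.25.

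To describe which genes varied with *Scd1* between mice of the same genotype, the genotype mean was taken off each log2 CPM value and Pearson's r was computed over the 13 mice, as a description with no test. The genes closest to *Scd1* among 16752 were *Seh1l* (0.97), *Dgcr6* (0.95), *Mme* (0.94), *Pm20d1* (0.94) and *Gm5182* (0.94). Among pathway genes *Tecr* was at 0.90, *Elovl6* at 0.82, *Fads3* at 0.74 and *Fads1* at 0.62. *Scd2* was at 0.11, *Fads2* at 0.05 and *Elovl1* at -0.31. The 2 mice that stood apart lay farthest from the median of *Scd1*. Without them, over 11 mice, r was 0.90 for *Seh1l*, 0.44 for *Dgcr6*, 0.81 for *Mme*, 0.70 for *Pm20d1* and 0.73 for *Gm5182*. It was then 0.53 for *Fads3*, 0.48 for *Tecr*, 0.17 for *Elovl6*, -0.10 for *Fads1*, -0.05 for *Scd2*, -0.19 for *Fads2* and 0.35 for *Elovl1*.

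**Figure D5:**
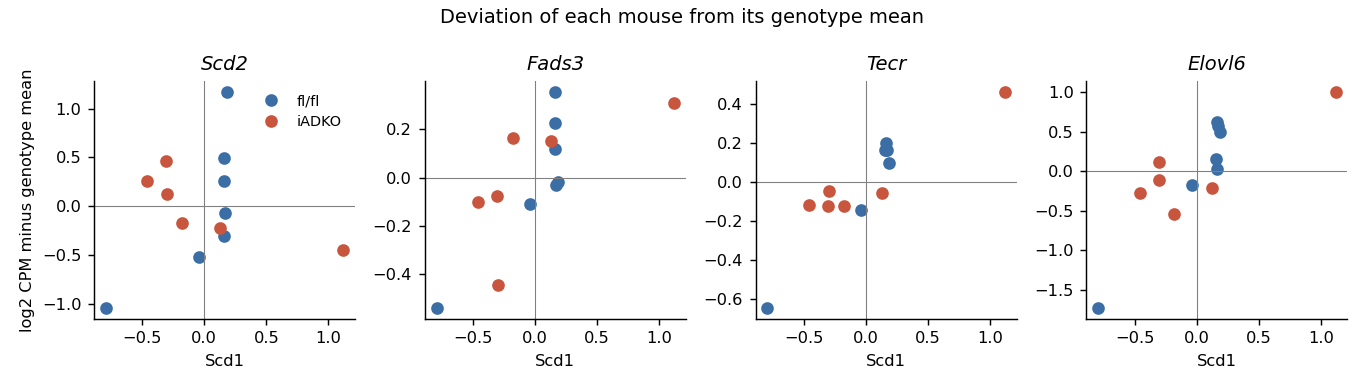
Deviation of each mouse from its genotype mean in log2 CPM, for *Scd1* on the horizontal axis and *Scd2*, *Fads3*, *Tecr* or *Elovl6* on the vertical axis, with fl/fl in blue and iADKO in red. The mouse farthest to the left is fl/fl replicate 5 and the mouse farthest to the right is iADKO replicate 6, and r over the 13 mice was 0.11, 0.74, 0.90 and 0.82.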

How the data were processed

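Bulk RNA-Seq of whole pmWAT was analyzed for 7 fl/fl and 6 iADKO female mice, grouped by the sample labels. The authors deposited raw counts per gene for 33618 Ensembl identifiers and, separately, log2 values that DESeq2's regularized log (rlog) makes from them. Strand-specific mRNA libraries were aligned with STAR to mm39, and the submitters' processing notes name FastQC 0.12.1, STAR 2.7.11a and DESeq2. The counting tool and annotation are not given in the sources used here. GENCODE vM39 held 33184 of the identifiers, and from it symbols, GRCm39 coordinates and lengths were taken.

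In R 4.3.3, edgeR 4.0.16 was used with filterByExpr, which left 16753 genes, TMM factors and the robust quasi-likelihood test. Log2 CPM used a prior count of 2. Standard errors came from the fold change and its statistic, and 95% intervals from the t distribution with n - 2 degrees of freedom. Paralogue ratios were compared by exact two-sided permutation tests. Both were tested on simulated data, for edgeR with few genes changed and as many up as down. That setting does not reach the dependence on scaling described above. The depth was 18854223 to 19776491 counts per mouse, and the SDs between mice include counting error. The lowest chi-square per degree of freedom between mice of a genotype was 8.16, so no library was a copy of another. The labels mark all mice with the same batch date, so no comparison between batches could be made. The animal-number series are no batch stated by the labels.

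The genes described, the pathway and marker lists and the tests were chosen with earlier results of these data known. Named are the 10 genes, *Lmna*, listed partners past the threshold with an absolute log2 fold change of at least 0.5, the highest and lowest of each list, the 5 genes most like *Scd1*, and tested neighbors within 100 kb. All electron donors past the threshold are named as well. Alternative settings were total counts, edgeR with DESeq2's size factors, no filter, at least 10 counts in every mouse, the replicate number or the animal-number series as a block, the Wald test of DESeq2 1.42.0, limma 3.58.1 on rlog values, a prior count of 0.5 for ratios and each mouse left out. Of the same-numbered fl/fl and iADKO mice, 6 pairs exist.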

Additional observations from a re-analysis of the deposited data

Results flagged for a closer look

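Of 20 groups of values examined for a mouse far from the others, 2 had such a mouse, where chance gives about 1 in 20 groups. *Scd1* in fl/fl replicate 5 was at 24443 CPM, below the other fl/fl mice at 41124 CPM and above, and this gap was 0.706 of the group's range (critical value 0.568). *Scd1* in iADKO replicate 6 was at 17639 CPM, above the other iADKO mice at up to 8875 CPM, and this gap was 0.747 of the range (critical value 0.625). These are the mice with the lowest fl/fl and the highest iADKO adipocyte marker sums, 10789 and 12017 CPM, and the part of those markers in the result was not tested.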

How the results depend on the processing

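*Scd1*, *Fads1*, *Fads3* and *Elovl1* kept their direction and side of the threshold under every alternative listed under processing. *Scd1* also stayed lower with adipocyte markers held level. That *Elovl1* stayed higher there follows from the scale, which moved the median of all genes to 0.96. With each mouse left out, 3998 to 6604 genes passed the threshold, 1769 to 3319 higher and 2216 to 3285 lower, as did 4 to 5 of the described genes lower and 1 higher and 5 to 6 of the 12 paralogue ratios. Total counts gave 8673 genes (7397 higher, 1276 lower) and 3 described genes lower, and the animal-number series as a block gave 1986 (784 higher, 1202 lower) and 3. With adipocyte markers held level, 15178 genes passed (15113 higher, 65 lower), with 1 described gene lower (*Scd1*) and 5 higher (*Fads1*, *Fads2*, *Elovl1*, *Elovl5* and *Elovl7*). On that scale *Scd2* (0.16), *Scd3* (0.55), *Fads1* (0.45), *Fads3* (0.12) and *Elovl5* (0.60) changed sign, a shift that the construction of the scale gives to all genes.

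*Scd2* missed the threshold with total counts (edgeR adjusted p = 0.0801), no filter (0.116), the replicate block (0.0551), the animal-number block (0.125) and limma on rlog values (0.0702), and its log2 fold change was -0.9997 to -0.61 with each mouse left out. *Fads2*, close to 0, was -0.0022 with DESeq2's size factors, -0.00058 with no filter, -0.035 with the replicate block, -0.029 with the animal-number block, -0.0052 by DESeq2, -0.00070 by limma, -0.026 without the 2 mice that stood apart and -0.036 to 0.069 with each mouse left out, but 0.21 with total counts and 0.93 with adipocyte markers held level, where it passed the threshold. *Elovl7* was -0.37 with the animal-number block, 1.23 with adipocyte markers held level (edgeR adjusted p = 0.0149) and -0.23 to 0.35 with each mouse left out. The ratio of *Elovl1* to *Elovl4* was -0.044 with a prior count of 0.5, 0.40 without the 2 mice that stood apart and -0.18 to 0.29 with each mouse left out, and that of *Scd2* to *Scd3* was 0.057 without the 2 mice and -0.43 to 0.10. The cause was not tested.

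The replicate number, shared between labels, was used as a block over 6 pairs without fl/fl replicate 7. Correlations of deviations between same-numbered mice were between -0.027 and 0.217, and 2 of 6 iADKO mice correlated best with their own number, so the numbers are not taken as pairs. With this replicate block 4833 genes passed the threshold, and 0 of the 12 paralogue ratios did by an exact sign-flip test over 6 pairs (adjusted p from 0.075 among those called before), whose smallest possible p leaves little room to pass after adjustment over 12 pairs. *Scd3* and *Elovl4*, at 3 to 25 reads per mouse, are limited by depth.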

Other observations

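Other cell type lists were read beside the desaturases. Since 16.3% of all genes tested were lower in iADKO and 14.1% higher, 1 gene called in a list of 3 or 4 is not read as a result about a cell type. Of 6 endothelial markers 2 were lower in iADKO, with summed levels of 844 to 1188 CPM in fl/fl and 881 to 1022 CPM in iADKO. None of 5 adipose progenitor markers passed the test (2267 to 3538 CPM and 2548 to 3941 CPM), nor did any of 6 mesothelial markers (340.1 to 705.0 CPM and 382.1 to 808.3 CPM). Of 4 T cell markers 1 was higher (12.2 to 22.7 CPM and 23.6 to 26.9 CPM), as was 1 of 3 B cell markers (15.9 to 42.8 CPM and 27.0 to 60.0 CPM) and 2 of 4 epithelial markers (11.1 to 38.6 CPM and 21.3 to 171.5 CPM). Of 3 brown adipocyte markers 2 were lower (18.1 to 96.3 CPM and 7.48 to 36.3 CPM), as was 1 of 4 Schwann cell markers (268.8 to 425.6 CPM and 235.2 to 268.7 CPM), and none of 4 skeletal muscle markers passed (14.4 to 311.5 CPM and 9.35 to 172.6 CPM). No listed marker was at 0 in every mouse. The part of these cell types in the desaturase and elongase results was not tested.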
